A study of Mus musculus with 8 samples.

Results

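CITED proteins are small transcriptional co-regulators that do not bind DNA themselves and act through the acetyltransferases CBP and p300. The genes described here are 3 members of that family, Cited1, Cited2 and Cited4, the acetyltransferase genes Crebbp (CBP) and Ep300 (p300), and the transcription factor genes Cebpb and Tfap2e. They were chosen by their gene symbols, 7 of the 22180 genes with a probe set of 1 symbol on the array. Each of the 7 has 1 such probe set, and all 7 were among the 15086 genes whose mean lay above the filter on low values. Signals are log2 intensities, so a difference of 1 is a doubling on the linear scale.

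The series holds Affymetrix arrays of total RNA from frozen hearts of male C57Bl6N mice, 4 labelled floxed control and 4 labelled CITED4 knockout. All of them had undergone transverse aortic constriction (TAC), which narrows the aorta and loads the left ventricle with pressure, and were harvested 1 week later. Both groups therefore share the operation, and no unoperated heart was analysed here. Nothing used here states the Cre driver, whether controls carried Cre, how old the mice were or which animals the arrays hold, so an effect of Cre and of the deletion cannot be told apart, and p-values measure the spread between these arrays.

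A conserved acidic C-terminal region of the CITED proteins binds the first cysteine-histidine-rich domain of CBP and p300. The hypoxia-inducible factor HIF-1 alpha binds the same domain, so CITED2 and CITED4 can restrain HIF-driven transcription, while CITED proteins also bring CBP and p300 to transcription factors of the TFAP2 family. CITED2 is needed for formation of the heart. In adult mouse hearts, endurance exercise is known to lower C/EBP beta, the product of Cebpb, and to raise CITED4.

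The start regions of the deleted gene and of its relative Cited2 are shown because the labels do not say which part of Cited4 was deleted and the file holds no probe sequences, so the gene's start is the part a reader can place. Each line gives the 250 bases before the RefSeq start on the gene's strand (build GRCm38.p6), at chr4:120666313-120666562 on the plus strand for Cited4 and at chr10:17722978-17723227 on the plus strand for Cited2. Capitals mark matches to the motifs searched.

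Cited4: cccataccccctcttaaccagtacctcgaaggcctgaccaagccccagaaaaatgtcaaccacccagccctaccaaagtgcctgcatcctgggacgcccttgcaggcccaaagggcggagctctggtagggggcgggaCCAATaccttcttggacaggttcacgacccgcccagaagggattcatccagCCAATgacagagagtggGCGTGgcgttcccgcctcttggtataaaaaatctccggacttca

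Cited2: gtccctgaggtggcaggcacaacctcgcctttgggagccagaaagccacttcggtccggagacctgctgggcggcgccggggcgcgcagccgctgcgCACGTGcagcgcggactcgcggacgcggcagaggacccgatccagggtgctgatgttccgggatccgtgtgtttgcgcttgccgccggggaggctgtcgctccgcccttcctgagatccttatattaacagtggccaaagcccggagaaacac

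The motifs were searched on both strands in the 250 bases before 32851 RefSeq starts. They were the HIF core in the forms ACGTG (in 16.6% of all starts) and GCGTG (28.2%), the CCAAT box CCAAT (33.8%), the cyclic AMP response element core TGACG (17.8%), a TFAP2 motif GCCNNNGGC (13.7%) and a C/EBP motif TTGCNNAA (9.56%). ACGTG and GCGTG can each overlap TGACG by their shared bases. The Cited4 window held CCAAT at 112 and at 61 bases before the start and GCGTG at 44 bases. The capitals in the Cited2 window are 1 palindrome that gives ACGTG on both strands, 152 and 153 bases before the start. The Crebbp window held the TFAP2 motif at 46 and at 30 bases before the start, and the Cebpb window held TGACG 3 times and GCGTG at 10 bases. The Tfap2e window held GCGTG at 100 bases, and the Ep300 window held no match. Cited1 has several starts. Their windows held GCGTG at 113 and 29 bases, ACGTG at 108, CCAAT at 100, the TFAP2 motif at 93 and TGACG at 33. Neither window shown held the C/EBP motif. These are matches of letters and were not tested as sites.

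Cited4 is the gene the knockout removes, and its signal lay below all controls in every knockout heart. Control replicates 1 to 4 had 5.89, 5.76, 6.05 and 6.22 and knockout replicates 1 to 4 had 5.26, 5.15, 4.83 and 5.02 (log2). The groups did not overlap, and the lowest control lay 0.50 above the highest knockout heart. Group means were 5.98 ± 0.20 for controls and 5.07 ± 0.19 for knockouts (SD, n = 4 per group). The difference of -0.91 ± 0.12 (log2, SE) corresponds to 53.1% of the control signal, with a 95% interval of 43.9% to 64.2%. With no detection call given, how much of the signal left in the knockout hearts is background was not tested. Of the 15086 genes tested, 2 had a more negative difference and 37 a larger one in size. With limma over all genes its adjusted p was 0.277, short of the threshold of 0.05, although the exact two-sided permutation p was 0.0286, the smallest that 4 against 4 arrays allow. Leaving out 1 array at a time gave differences between -0.99 and -0.83. In 72.0% of the tested genes the spread within groups was smaller.

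**Figure D1:**
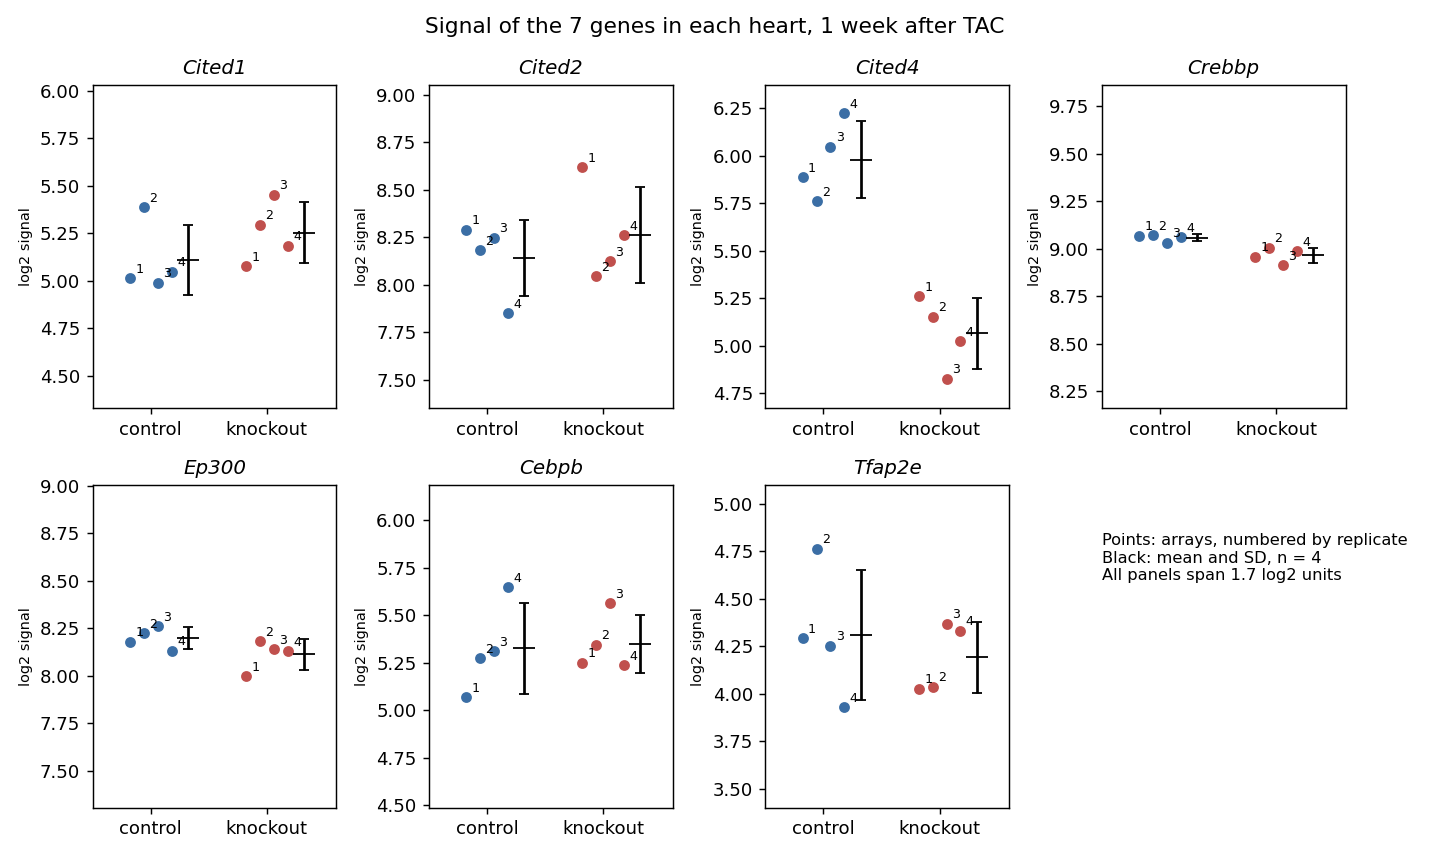
Log2 signal (vertical axis, 1 panel per gene, each spanning the same number of log2 units) of the 7 genes in 4 control (blue) and 4 knockout (red) hearts, numbered by replicate, with the mean and SD in black. Cited4 separates the groups by 0.50, Crebbp separates them by 0.03, and the other 5 genes overlap.

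The other CITED genes did not pass the test in either direction. Cited2, whose product shares the CBP/p300-binding region and restrains HIF, was at 8.29, 8.18, 8.25 and 7.85 in control replicates 1 to 4. In knockout replicates 1 to 4 it was at 8.62, 8.05, 8.13 and 8.26. Only knockout replicate 1 lay above all controls, and the other 3 knockout hearts lay within the control range. The difference was 0.12 ± 0.14 (log2, SE; limma adjusted p = 0.767, exact permutation p = 0.514), or 109% of the control signal with a 95% interval of 87.6% to 135%. Without control replicate 4 it was 0.02, without knockout replicate 1 it was 9.1e-04, and without knockout replicates 1 and 4 it was -0.06.

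Cited1, which encodes a relative first described in pigment cells and able to co-activate SMAD4, was at 5.01, 5.39, 4.99 and 5.05 in control replicates 1 to 4. Knockout replicates 1 to 4 had 5.08, 5.29, 5.45 and 5.18. Of the controls 3 lay below every knockout heart, and control replicate 2 lay above 3 of them. The difference was 0.14 ± 0.11 (log2, SE; limma adjusted p = 0.642, exact permutation p = 0.286), with an interval of 92.6% to 132% of the control signal. It was 0.23 without control replicate 2 and 0.08 without knockout replicate 3. A rise of Cited1 or Cited2 by up to about these upper bounds could not be told from no change at this number of arrays.

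Crebbp, which encodes CBP, had a slightly lower signal in all 4 knockout hearts than in any control. Control replicates 1 to 4 had 9.07, 9.07, 9.03 and 9.06 and knockout replicates 1 to 4 had 8.96, 9.01, 8.91 and 8.99 (log2). The gap between the groups was 0.03, against control values that span 0.04 and knockout values that span 0.09. The difference was -0.09, which left 93.8% of the control signal, with an exact permutation p of 0.0286. The limma standard error of 0.07 is larger than the spread of this gene alone would give, because limma draws each gene's variance towards that of all genes, and the adjusted p was 0.597. Crebbp had a smaller spread within groups than all but 0.312% of the tested genes. An unmoderated test gave a standard error of 0.02 and an unadjusted p of 5.7e-03, which adjusted over all genes was 0.545. A larger difference was seen in 51.8% of the tested genes. Leaving out 1 array at a time gave differences from -0.11 to -0.07.

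Ep300, the paralogue of Crebbp, had values of 8.18, 8.23, 8.26 and 8.13 in control replicates 1 to 4. Knockout replicates 1 to 4 had 8.00, 8.18, 8.14 and 8.13. All 4 knockout hearts lay below the control mean, and 2 lay below every control, so the groups overlapped. The difference was -0.09 ± 0.07 (log2, SE; limma adjusted p = 0.656, exact permutation p = 0.143), with an interval of 84.1% to 105% of the control signal. Without knockout replicate 1 it was -0.05. Only 6.59% of tested genes varied less within groups, so both acetyltransferase genes were among the steadier signals on these arrays.

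Cebpb encodes a leucine zipper factor of inflammation, fat cell formation and exercise-induced heart growth. It was at 5.07, 5.28, 5.31 and 5.65 in control replicates 1 to 4 and at 5.25, 5.35, 5.56 and 5.24 in knockout replicates 1 to 4. All knockout values lay inside the control range. The difference was 0.02 ± 0.13 (log2, SE; limma adjusted p = 0.956, exact permutation p = 0.914), with an interval of 83.7% to 124% of the control signal. Its sign changed without control replicate 1 (-0.06) or without knockout replicate 3 (-0.05).

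Tfap2e encodes AP-2 epsilon, a TFAP2 factor known from the olfactory system. It was at 4.29, 4.76, 4.25 and 3.93 in control replicates 1 to 4 and at 4.03, 4.04, 4.37 and 4.33 in knockout replicates 1 to 4. The controls spanned 0.83 and enclosed all knockout values. The difference was -0.12 ± 0.16 (log2, SE; limma adjusted p = 0.806, exact permutation p = 0.657), and it was 0.03 without control replicate 2. Its spread within groups was wider than that of 90.4% of the tested genes. The files give no detection call, and the filter lies at 3.80, so whether this signal is above background was not tested.

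Of the 7 genes 0 passed limma at an adjusted p of 0.05, as did 0% of all genes tested. At an unadjusted limma p under 0.05 there was 1, Cited4, where 11.2% of all genes reached it. Groups without overlap were seen in 2 of the 7, Cited4 and Crebbp, both lower in the knockout. Among all genes 2.9% were lower without overlap and 5.23% were separated in either direction. Since 1 of the 2 is the deleted gene itself, the share among the other 6 rests on Crebbp.

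**Figure D2:**
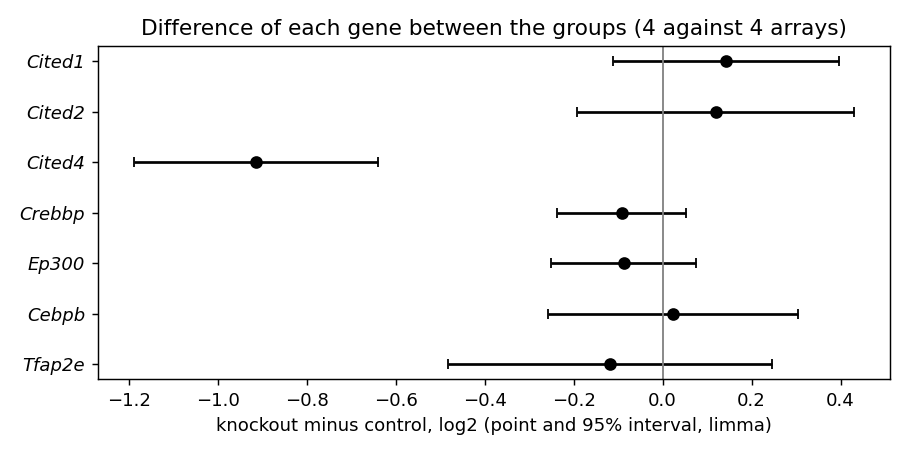
Knockout minus control difference (horizontal axis, log2) of each gene with its 95% interval from limma, 4 against 4 arrays. The interval of Cited4 runs from -1.19 to -0.64 and those of the other 6 genes include 0.

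Cell type markers varied between the hearts in which these genes were read, and 0 genes of the 10 marker lists passed limma at an adjusted p of 0.05. The 5 activated fibroblast markers (Postn, Lox, Ccn4, Meox1 and Thbs4) were higher in the knockout in 5 of 5 cases, with a median difference of 1.09 (log2). All 5 had an unadjusted limma p under 0.05, which 5.64% of all genes reached in that direction. Their mean deviation ran from -0.95 to 0.26 in controls and from -0.25 to 1.17 in knockout hearts, with knockout replicates 1 (0.98) and 4 (1.17) on top. The ventricular cardiomyocyte markers were lower in 5 of 6 cases, at 0.03 to 0.12 in controls and -0.20 to 0.07 in knockout hearts. Their median difference was -0.14, and 2 (both lower) had an unadjusted limma p under 0.05, against 5.61% of all genes. The lowest group mean of the 6 was 7.91 (Myl2), so the defining markers of the labelled tissue lay far above the filter. The 3 atrial markers stood at 3.27 in knockout replicate 2 and between -0.82 and 0.22 elsewhere. In that heart Myl7, Sln and Myl4 were at 9.02, 9.31 and 5.88 (log2). Controls ran from 4.08 to 5.04 for Myl7, from 2.75 to 4.98 for Sln and from 4.93 to 5.10 for Myl4. Myl7 and Sln overlapped between the groups, but Myl4 lay above every control in all 4 knockout hearts (5.16 to 5.88). Groups without overlap in either direction were seen in 5.23% of all genes. The Myl4 difference was 0.39 ± 0.14 (log2, SE, limma adjusted p = 0.421). Which part of the heart each array holds was not tested. The part of these differences in the values of the 7 genes was not tested. Fewer cells of a type and less RNA per cell cannot be told apart in RNA from mixed cells. Without knockout replicates 1 and 4 the differences were -0.99 for Cited4, -0.10 for Crebbp, -0.04 for Ep300, 0.26 for Cited1, 0.13 for Cebpb and -0.11 for Tfap2e. These values rest on 2 knockout hearts, replicates 2 and 3, and replicate 2 is the heart with the high Myl7 and Sln signals.

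The 7 genes were also compared with each other within groups, after each group's mean was removed, as 21 pairs over 8 arrays. The exact test exchanged arrays within groups (576 arrangements). Cited4 and Tfap2e ran in opposite order in each group: the hearts with more Cited4 signal had less Tfap2e signal. Whether the low Tfap2e signal is above background was not tested. Pearson r was -0.90 (exact permutation p = 5.2e-03, adjusted over the 21 pairs 0.109), and the Spearman rho on ranks within groups was -1.0 (exact permutation p = 3.5e-03, adjusted 0.0729). The relation held without control replicate 4 and knockout replicate 3, the arrays farthest from the median of Cited4 (r = -0.89), and r was -0.94 in controls and -0.91 in knockout hearts. It missed the threshold after adjustment, and 0 of 21 pairs passed. Cited1 and Cited4 had r = -0.74 (exact permutation p = 0.068, adjusted 0.474), with rho = -0.60 (exact permutation p = 0.212, adjusted 0.855). Without control replicate 2 and knockout replicate 3 their r was -0.11. The pair Cited2 and Cebpb had r = -0.72 (exact permutation p = 0.066, adjusted 0.474; rho = -0.70, exact permutation p = 0.111, adjusted 0.778), and r = -0.66 without control replicate 4 and knockout replicate 1.

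**Figure D3:**
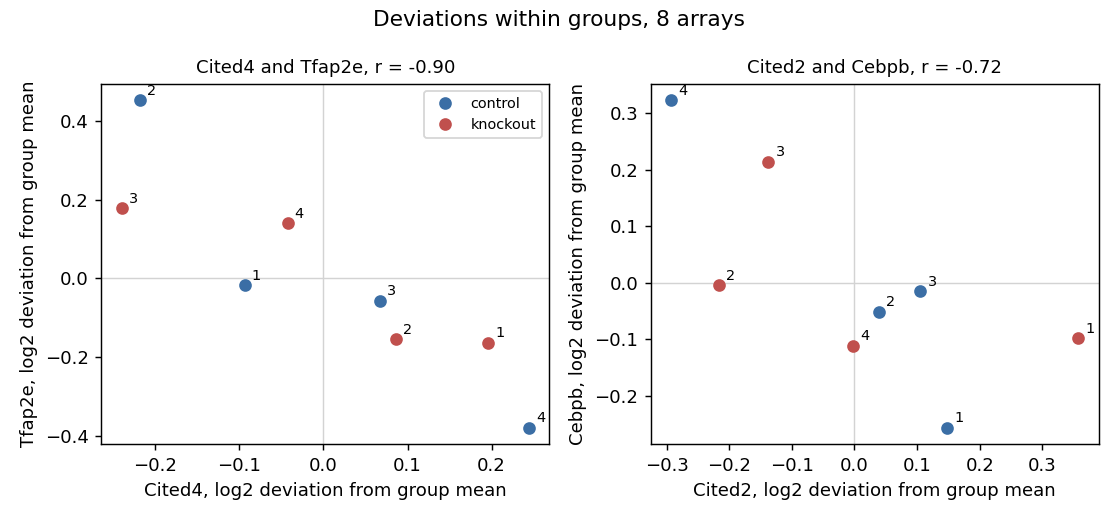
Deviation from the group mean (log2, both axes) of Tfap2e against Cited4 and of Cebpb against Cited2 in 4 control (blue) and 4 knockout (red) hearts, numbered by replicate. The points fall from upper left to lower right in the first panel (r = -0.90) and more loosely in the second (r = -0.72).

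The genes whose signal over the 8 arrays was most like that of Cited4 were Slc9a2 (r = 0.97), Cep44 (r = 0.97) and AI597479 (r = 0.94). They were chosen for the highest Pearson r among 15085 genes, of which 14 reached 0.9, so these values are a description. Group means were not removed here, so a separation of the groups in the direction of Cited4 follows largely from the choice. Slc9a2, which encodes a sodium-proton exchanger, was at 5.85, 5.92, 5.93 and 6.16 in control replicates 1 to 4 and at 5.46, 5.47, 5.35 and 5.28 in knockout replicates 1 to 4. Its groups did not overlap, with a difference of -0.57 ± 0.09 (log2, SE; limma adjusted p = 0.277). Cep44, a centrosome gene, differed by -0.23 ± 0.07 and AI597479 by -0.20 ± 0.07, both without overlap and each with a limma adjusted p of 0.421. For Cited2 the nearest genes were Fdps, an enzyme gene of isoprenoid synthesis (r = 0.98), 4933431E20Rik (r = 0.97) and Slc4a8, a bicarbonate transporter gene (r = 0.97). For Cebpb they were Cplx2 (r = 0.97), Zfp692 (r = 0.97) and Krt83 (r = 0.95). At 0.9 or above there were 40 genes for Cited2 and 11 for Cebpb, and the groups overlapped in each of these 6 genes.

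Relatives of the partner factors were read next. Of the 5 TFAP2 genes only Tfap2e reached the filter. Tfap2d, below it, had 2.85, 3.07, 2.83 and 3.05 in control replicates 1 to 4 and 3.21, 3.30, 3.24 and 3.18 in knockout replicates 1 to 4, with no overlap. Signals this low were left out of the main fit. With no filter the difference was 0.28 ± 0.09 (log2, SE, unadjusted limma p = 7.9e-03, exact permutation p = 0.0286), and limma called 0 of 22180 genes. Whether this signal is above background was not tested. Tfap2a, Tfap2b and Tfap2c had group means between 2.68 and 3.02. In the C/EBP family 6 genes were tested, with 5 higher, 1 lower and a median difference of 0.08 where all genes had 0.0038; 0 passed, and 1 (higher) had an unadjusted limma p under 0.05, which 5.64% of all genes reached in that direction and 5.61% in the other. Cebpd, an acute phase relative of Cebpb, was at 4.28, 4.53, 4.50 and 4.73 in control and at 4.82, 4.60, 4.86 and 4.85 in knockout replicates 1 to 4. That is a difference of 0.27 ± 0.11 (log2, SE; limma adjusted p = 0.421), with 3 of 4 knockout hearts above all controls. Cebpg, a dimer partner of the other C/EBP proteins, was at 7.01, 7.15, 7.04 and 7.16 in control and at 6.84, 7.01, 6.88 and 6.99 in knockout replicates 1 to 4. It differed by -0.16 ± 0.08 (adjusted p = 0.461); the groups did not overlap, though the highest knockout value and the lowest control value nearly met. Cebpa differed by 0.11 ± 0.17, Ddit3, the stress-induced member known as CHOP, by 0.11 ± 0.10 and Cebpe by 0.06 ± 0.10.

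Other acetyltransferases and co-activators that work beside CBP and p300 were lower in 10 of 15 genes, with a median of -0.06; 0 passed, and 2 (both lower) had an unadjusted limma p under 0.05, against 5.61% of all genes. Of all genes tested 51.2% were higher and the rest lower. Kat6b, a histone H3 acetyltransferase gene, was at 7.06, 7.02, 7.01 and 6.84 in control and at 6.46, 6.84, 6.82 and 6.54 in knockout replicates 1 to 4, with no overlap by a narrow margin. Its difference was -0.32 ± 0.10 (log2, SE; limma adjusted p = 0.421). Ncoa1 (-0.19 ± 0.08) and Ncoa2 (-0.16 ± 0.09), which encode steroid receptor co-activators that recruit CBP and p300, and Kat8 (-0.18 ± 0.11) were next by p. Without knockout replicate 1, Kat8 was at -0.08 and Ncoa2 at -0.10. Histone deacetylases, which remove the marks that CBP and p300 set, were higher in 8 and lower in 8 of 16 genes, with a median of 0.0034, 0 past the test and 1 (higher) at an unadjusted limma p under 0.05, against 5.64% of all genes. Hdac6, a mostly cytoplasmic tubulin deacetylase, had no overlap (control 6.08 to 6.37, knockout 6.45 to 6.72) and a difference of 0.31 ± 0.10 (adjusted p = 0.421). Hdac1 differed by 0.24 ± 0.12, Hdac10 by 0.15 ± 0.09 and Hdac2 by -0.16 ± 0.08. Hdac10 was at 0.09 without control replicate 4, and Hdac2 at -0.10 without knockout replicate 1.

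Transcription factors that bind CBP or p300 numbered 37, of which 14 lay higher and 23 lay lower; their median was -0.03. After adjustment 0 passed limma, and 1 (lower) had an unadjusted p under 0.05, against 5.61% of all genes. Ppara, the fatty acid receptor gene, was at 6.11, 6.49, 6.42 and 6.48 in control and at 5.79, 6.24, 6.20 and 5.76 in knockout replicates 1 to 4. Control replicate 1 lay among the knockout hearts, and the difference was -0.38 ± 0.14 (log2, SE; limma adjusted p = 0.421). Egr1, an immediate early factor gene, differed by 0.35 ± 0.18, Smad1 by 0.21 ± 0.12 and Nfatc4 by 0.20 ± 0.11. Egr1 was at 0.21 without control replicate 2 and at 0.22 without knockout replicate 1, and Smad1 was at 0.13 without control replicate 3.

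HIF target genes are those driven by the factor with which CITED2 and CITED4 compete for CBP and p300. Among 23 tested genes 11 had higher and 12 had lower signals, their median was -0.0024, and 0 passed. At an unadjusted limma p under 0.05 were 3 higher and 1 lower, where 5.64% of all genes were higher and 5.61% lower at that p. Members with the smallest p lay in both directions. Ddit4, a stress-induced inhibitor of mTOR, differed by 0.53 ± 0.20, Slc2a1, the glucose transporter GLUT1, by 0.39 ± 0.14 and Car9, a carbonic anhydrase gene, by 0.24 ± 0.11. Egln1, the prolyl hydroxylase that marks HIF for degradation, was at 9.25, 9.38, 9.32 and 9.37 in control and at 8.79, 9.13, 9.17 and 8.93 in knockout replicates 1 to 4. It had no overlap and a difference of -0.32 ± 0.10 (log2, SE), with a limma adjusted p of 0.421, as had Ddit4 and Slc2a1, against 0.438 for Car9. Without control replicate 2, Ddit4 was at 0.35. The lowest values of Egln1 were those of knockout replicates 1 and 4.

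Growth signalling and cardiac genes of the exercise response in which Cebpb and Cited4 are known to act were higher in 6 and lower in 9 of 15 genes, with a median of -0.06, 0 past the test and 2 in each direction at an unadjusted limma p under 0.05, which 11.2% of all genes reached. Ppargc1a, the gene of the energy regulator PGC-1 alpha, differed by -0.61 ± 0.21, Myh6, the fast myosin heavy chain, by -0.35 ± 0.13, Myh7, the slow one, by 0.35 ± 0.16 and Igf1, the growth factor, by 0.31 ± 0.11 (log2, SE; limma adjusted p from 0.421 to 0.444). The groups overlapped in each of these genes. Knockout replicates 1 and 4 had the lowest Ppargc1a (8.98 and 9.21) and Myh6 (11.39 and 11.44) and the highest Igf1 (7.29 and 7.19). Myh7 was highest in knockout replicates 2 and 4. Ppargc1a in control replicate 1 was at 9.55, among the knockout hearts. Gata4, a cardiac factor that p300 acetylates, was at 7.52, 7.53, 7.57 and 7.52 in control and at 7.72, 7.53, 7.50 and 7.57 in knockout replicates 1 to 4. That is a difference of 0.04 ± 0.07.

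**Figure D4:**
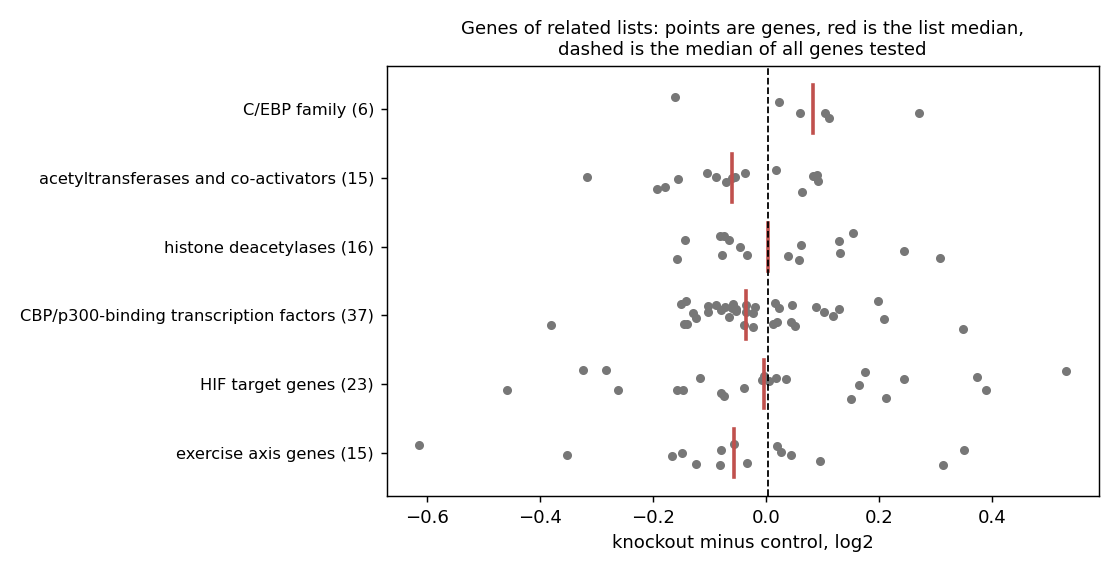
Knockout minus control difference (horizontal axis, log2) of each tested gene (grey points) in 6 lists related to CITED4 and CBP/p300, with the list median in red and the median of all genes tested (0.0038) as a dashed line. List medians lie between -0.06 and 0.08.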

How the data were processed

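Log2 signals of 41345 probe sets on 8 arrays were deposited by the authors. Per the submitters' processing notes, RMA (background correction, quantile normalization and probe summary) and limma were used, with no version stated. The genome build, where the probes lie and any array batches are unstated in the sources used, so batches were not tested. Quantile normalization removes any shift common to all genes.

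Symbols came from the platform annotation, updated by Entrez identifier (23328 of 23521 probe sets with 1 symbol). For each gene the probe set with the highest mean was used, and genes below the 40th percentile of probe set means (3.80) were left out of the main fit. Knockout minus control was fitted with limma 3.58.1 (lmFit and eBayes) in R 4.3.3 over 15086 genes, p-values adjusted by Benjamini-Hochberg and called under 0.05. The step was tested on simulated data with noise drawn independently for each gene. Real arrays can share differences across genes, so that test does not gauge the calls made here. Single values had an exact two-sided permutation test over 70 assignments. Deviations of markers are means over the list's tested genes of log2 deviations from each gene's mean over the 8 arrays.

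The 7 genes, the lists and the alternatives were chosen with earlier results of these data known. Other genes were named by rule: the 3 genes most like Cited4, Cited2 and Cebpb, all TFAP2 and C/EBP genes, and the 4 smallest p per list. Gata4 was named after its values were seen. Of the listed genes 7 were not analysed here. Starts and promoter sequences are from RefSeq (GRCm38.p6), matched by symbol for 7 of 7 genes.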

Additional observations from a re-analysis of the deposited data

Results flagged for a closer look

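In groups of 4 arrays, a highest or lowest value whose gap to its neighbour, as a share of the group's range, exceeded Dixon's critical value was looked for in 90 groups, the 7 genes and 38 others named by rule. Chance gives about 1 in 20 groups where genes are not chosen by their values, and 7 values were found. Genes most like a member and those with the smallest p were chosen by their values, so the 7 cannot be read against that share. Among the 7 genes it was Cited1 in control replicate 2 (5.39, with the next control at 5.05). Among related genes it was Cebpd in knockout replicate 2 (4.60, next 4.82), Ddit4 in knockout replicate 2 (5.86, next 6.32) and Ppargc1a in control replicate 1 (9.55, next 10.14). Among genes most like Cited4 and Cited2 it was Cep44 in control replicate 4 (5.47, next 5.41), and Slc4a8 both in control replicate 4 (3.60, next 3.83) and in knockout replicate 1 (4.11, next 3.80).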

How the results depend on the processing

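The number of arrays limits every value. The 7 differences had the same direction and side of the threshold in every setting run, apart from the following and from Tfap2e under the filter at the 60th percentile, which left it out. With array weights Cebpb was at -0.015. Without knockout replicates 1 and 4 together Cited2 was at -0.057, 4933431E20Rik at -0.019, Cebpa at -0.20, Fdps at -0.0072 and Zfp692 at 0.013, and the median of the CBP/p300-binding factors was -0.018. Leaving out 1 array at a time gave -0.062 to 0.13 for Cebpb, -0.25 to 0.033 for Tfap2e, -0.060 to 0.23 for Cebpa, -0.016 to 0.12 for Cebpe, -0.018 to 0.10 for Cplx2, -3.2e-04 to 0.17 for Krt83, -0.11 to 0.042 for Tfap2b, -0.069 to 0.048 for Tfap2c, -0.034 to 0.014 for Zfp692 and -0.031 to 0.045 for the median of HIF targets. The cause was not tested. Limma called 0 genes in each setting, with 617 to 2390 genes at an unadjusted p under 0.05 (1697 as reported), and 0 at an adjusted p of 0.1. Same-numbered control and knockout arrays had correlated deviations between -0.03 and 0.36, and 2 of 4 controls correlated best with their own number. The numbers were not taken as pairs in the main fit, but these correlations cannot exclude pairing. With the replicate block the count of calls stayed at 0, and Cited4 had an adjusted p of 0.125 and the rank 19 by p, against 1 as reported and 13 in the unmoderated test.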
